A study of Saccharomyces cerevisiae with 4 samples.

Results

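The yapsins are a family of secreted aspartic proteases of budding yeast, Saccharomyces cerevisiae, encoded by YPS1, YPS3, YPS6, YPS7 and MKC7. The family was picked by name from the platform's probe annotation, after fold changes of YPS3 and YPS6 in the comparison below had been seen. The strain contrast of its members is therefore given as a description, with the calls of the fit over all probe sets and with no p-value of its own. Each of the 5 genes had exactly 1 probe set assigned to it alone, so 5 of 9275 yeast probe sets and 5 of 5656 genes named by at least 1 such probe set were read. All 5 passed the filter on dim probe sets, at a mean signal of about 8.97.

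Yapsins reach the cell surface through the secretory pathway and are held at the plasma membrane or in the cell wall by a glycosylphosphatidylinositol (GPI) anchor. They cleave proteins at basic residues and release or process other surface proteins, and cells that lack them are sensitive to cell wall stress and assemble glucan poorly. YPS1 is the best studied member, and MKC7 was found as a multicopy suppressor of a strain lacking KEX2, the furin-like protease of the late Golgi.

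The arrays were one-colour Affymetrix arrays, 2 from cultures of strain YCB600, labelled as the hst3hst4 mutant, and 2 from cultures of strain YCB617, labelled wild-type. Both strains are of the FY background and grew in the rich medium YPD. HST3 and HST4 encode sirtuins that remove acetyl groups from lysine 56 of histone H3. Comparing every mutant culture with every wild-type one, as the series was designed, asks how transcript levels differ without both deacetylases. The labels say neither how the genes were deleted nor the mating type or growth stage.

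The deleted genes check the labels. For HST3, the arrays labelled hst3hst4 read 0.4 and 0.5, and the wild-type arrays read 13.7 and 25.3, all part of a probe set below the filter. HST4 went the other way, with 38.0 and 39.3 against 3.6 and 0.9, so every direction given here is that of arrays by their label. It was called in limma (log2 fold change 2.96, adjusted p = 0.0104). Both wild-type signals of HST4 lie below the filter of about 8.97, so it was tested only through its hst3hst4 signals. Median signals per array were 37.5 to 41.2, and the log2 signals of tested probe sets correlated with r = 0.984 between the hst3hst4 arrays and 0.971 between the wild-type arrays, across probe sets that are not independent. All 9 bacterial and phage hybridisation controls had lower signals in the mutant than in the wild-type, with a mean log2 difference of -0.36. The 3′ to 5′ signal ratio of the SPT15 control, a measure of RNA integrity, was 3.82 and 3.70 for hst3hst4 against 4.64 and 5.20 for wild-type. That of ACT1 was 1.73 and 1.78 against 1.70 and 1.88. That of SRB4 was 2.34 and 1.90 against 1.87 and 1.63. The part of these measures in the yapsin values was not tested. When arrays were scaled on the hybridisation controls, an alternative chosen after seeing the data, the median over all probe sets was 0.32 in place of -0.02 (log2 fold change), so values below are relative to the deposited scale. Each strain has 2 arrays, which limits the precision of every value: an exact two-sided permutation test of 1 probe set over these arrays cannot go below p = 0.333.

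The 5 yapsin genes did not move together. YPS3 and YPS6 were higher on the arrays labelled hst3hst4, at 2.13-fold and 2.48-fold on the log2(signal + 3.3) scale, and both were called at an adjusted p under 0.05 in limma over 7420 probe sets. YPS7 had a fold of 1.57 and MKC7 one of 0.654, and neither was called. YPS1, the neighbour of YPS3 on the chromosome, had a fold of 0.952 and was not called. In such bulk extracts, a change in transcript per cell and a change in the share of cells that express the gene cannot be told apart. In all, 2 of the 5 were called, both higher, beside 2.64% of all probe sets tested in either direction, 2.2% of 5271 genes higher and 0.531% lower. Because the members were picked with this contrast known, nothing is read from that count. The same shares are the background of each count of called genes below that uses this fit.

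**Figure D1:**
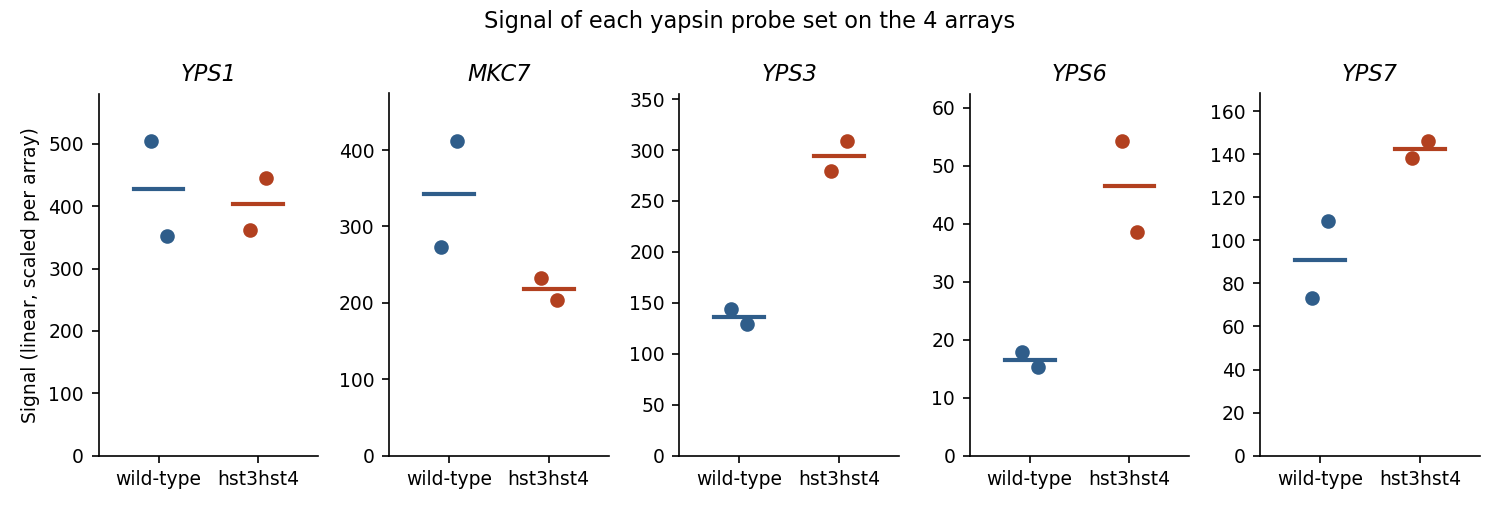
Signals (linear, vertical axes from 0, a scale of its own for each gene) of the 5 yapsin probe sets on the wild-type arrays (blue) and the arrays labelled hst3hst4 (red). Points are single arrays and lines are means. The strains are apart for YPS3, YPS6, YPS7 and MKC7 and overlap for YPS1.

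YPS3 (YLR121C, chromosome XII, 388744 to 390270 in the R64 assembly) encodes a yapsin of the cell wall. The hst3hst4 arrays read 279.2 and 309.1 and the wild-type arrays 144.2 and 128.9, means of 294 ± 21.1 and 137 ± 10.8 (SD, n = 2). Both hst3hst4 arrays lay above both wild-type arrays, and the cultures of 1 strain differed little beside the gap between strains. On the log2 scale the fold change was 1.09 (SE 0.16, 95% interval 0.71 to 1.47), 210th from the highest of 7420 probe sets. The 4 mutant to wild-type pairs of arrays ranged from 0.94 to 1.24, against 0.15 between the hst3hst4 cultures and -0.16 between the wild-type cultures (replicate 2 minus replicate 1). The call was lost without hst3hst4 replicate 1, where the log2 fold change was 1.16, and without hst3hst4 replicate 2, where it was 1.02. Nearly all probe sets called over the 4 arrays lost their call in these 2 fits. Such a loss therefore says little about a single gene, here and below. The YPS3 call was also lost with no filter on dim probe sets and without the mean-variance trend, both at 1.09. There 36 and 38 probe sets were called, in place of 196.

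YPS6 (YIR039C, chromosome IX, 430498 to 432111) encodes a putative GPI-anchored yapsin. In hst3hst4 it read 54.3 and 38.6, against 17.8 and 15.3 in wild-type, means of 46.5 ± 11.1 and 16.6 ± 1.77 (SD, n = 2). The strains did not overlap, and the wild-type signals were dim but above the filter on their own. The hst3hst4 cultures differed from each other by -0.46 on the log2 scale and the wild-type cultures by -0.18. The fold change was 1.31 (SE 0.26, 95% interval 0.71 to 1.91), the highest of the 5 and 129th of all probe sets tested, with array pairs from 0.99 to 1.63. Its call was lost without hst3hst4 replicate 1 (1.08) or replicate 2 (1.54), with no filter and without the trend (both 1.31), and with arrays centred on their medians (1.27).

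YPS7 (YDR349C, chromosome IV, 1172386 to 1174176) encodes another putative GPI-anchored member. Signals of 138.1 and 146.2 in hst3hst4 stood against 73.0 and 108.9 in wild-type. The mutant arrays were the higher ones in all 4 pairs, but the wild-type cultures differed by 0.56 on the log2 scale, nearly as much as the fold change itself. That fold change was 0.65 (SE 0.22, 95% interval 0.14 to 1.16) and was not called. It was called without wild-type replicate 2, the brighter one (0.93), and when arrays were scaled to the hybridisation controls (1.003). Both fits called more probe sets of all kinds, 1168 of 7420 on those controls, so nothing is read from these calls. Without wild-type replicate 1 the log2 fold change was 0.37 and not called.

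MKC7 (YDR144C, chromosome IV, 744311 to 746101) was the 1 yapsin with lower signals on both hst3hst4 arrays, 233.1 and 203.8, than on the wild-type arrays, 272.5 and 412.2. Its strains did not overlap, though the nearest pair of arrays lay only 0.22 apart on the log2 scale and the wild-type cultures differed by 0.59. The log2 fold change was -0.61 (SE 0.22, 95% interval -1.12 to -0.11), lower than that of all but 5.04% of probe sets tested, and was not called. It was called without wild-type replicate 1 (-0.91), where many more probe sets of all kinds were called, so nothing is read from that call. Without wild-type replicate 2 the log2 fold change was -0.32. The fit scaled to the hybridisation controls gave -0.26.

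YPS1 (YLR120C, chromosome XII, 386511 to 388220) encodes the best studied yapsin. The hst3hst4 arrays read 361.3 and 445.2 and the wild-type arrays 505.0 and 351.7, so the strains overlapped. The log2 fold change was -0.07 (SE 0.21, 95% interval -0.55 to 0.41). The array pairs ran from -0.48 to 0.34, and the wild-type cultures alone differed by -0.52. The sign turned without hst3hst4 replicate 1 (0.08), without wild-type replicate 1 (0.19) and on the hybridisation controls (0.29), none of them called.

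Where strains did not overlap, YPS3, YPS6 and YPS7 lay above and MKC7 below. Of all 5271 genes tested, 25.1% had both hst3hst4 arrays above both wild-type arrays and 27.4% had both below, so a gap of this kind is common in these data and says little alone.

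Relative to each other within an array, the yapsins shifted in different ways. The log2 signal of YPS1 minus that of YPS3 was 1.78 and 1.43 in wild-type but 0.37 and 0.52 in hst3hst4, a change of -1.16 (array pairs from -1.42 to -0.90). Such a difference compares separate probe sets, so only its change between arrays is meaningful. That of YPS3 minus MKC7 changed by 1.70 (pairs from 1.16 to 2.25) and that of YPS6 minus MKC7 by 1.92 (1.403 to 2.44). YPS3 and YPS6 shifted alike within their spread, at -0.22 (pairs from -0.54 to 0.09). These values take the same arrays as the fold changes and are a description; they do not depend on how an array was scaled, apart from the constant of 3.3.

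**Figure D2:**
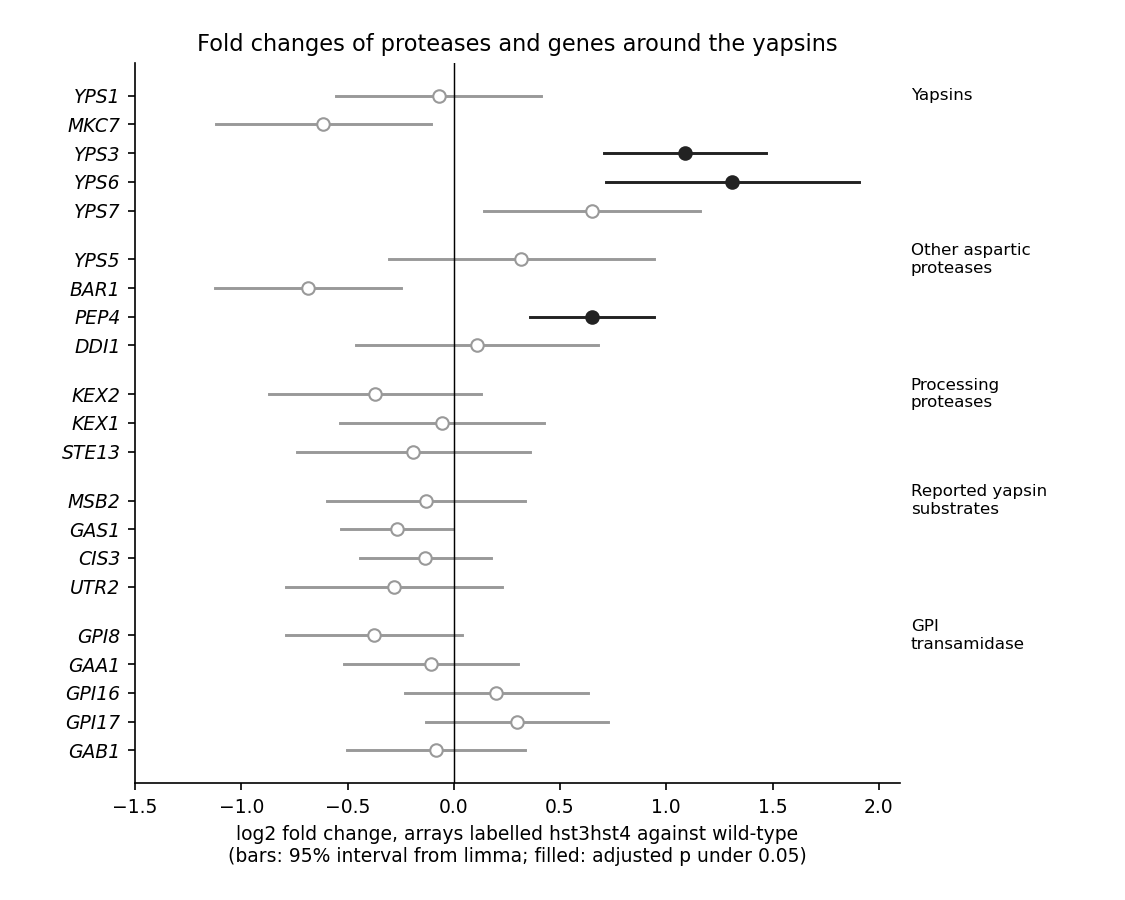
Log2 fold changes (horizontal axis, arrays labelled hst3hst4 against wild-type) of the yapsins and of the genes around them, with 95% intervals from limma. Filled points were called at an adjusted p under 0.05: YPS3 at 1.09, YPS6 at 1.31 and PEP4 at 0.65.

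Among other aspartic proteases, PEP4, the vacuolar proteinase A that activates other vacuolar hydrolases, was the 1 of 4 called. It was higher, beside 2.2% of all genes tested called higher. It read 2217.3 and 2063.9 in hst3hst4 against 1391.4 and 1329.6 in wild-type, which is 0.65 on the log2 scale (SE 0.13, limma adjusted p = 0.042). That call was lost without hst3hst4 replicate 1 (0.60) or replicate 2 (0.70), with median centring, with no filter and without the trend (adjusted p up to 0.379 over the alternatives). BAR1, the secreted protease that degrades alpha-factor, had signals of 231.1 and 317.4 against 414.7 and 462.1. Its log2 fold change was -0.69 (limma adjusted p = 0.11). YPS5, a short gene of 498 bp related to the yapsins, had 0.32 (0.55), and DDI1, a ubiquitin-binding protein with a retroviral-type protease fold, had 0.11 (0.837). In limma 2 of the 4 had an unadjusted p under 0.05, beside 20.2% of all probe sets. The median of these 4 was 0.21 on the log2 scale, beside -0.01 for all genes tested. On the hybridisation controls it was 0.54 with 1 called, beside 0.32 for all probe sets with 1168 of 7420 called. With median centring 0 of the 4 were called.

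The proteases that share the yapsins' cleavage sites or route were not called. KEX2 had a log2 fold change of -0.37 (limma adjusted p = 0.376), the carboxypeptidase KEX1, which trims basic residues, -0.06 (0.907), and the dipeptidyl aminopeptidase STE13 -0.19 (0.694). Of these 3 genes 0 had an unadjusted p under 0.05, a mark that 1498 of all 7420 probe sets (20.2%) passed, so nothing is read from the 0. That share is the background of each unadjusted count below. Of 4 reported yapsin substrates 0 were called and 1, the glucan-remodelling enzyme GAS1, had an unadjusted p under 0.05. All 4 had values below 0, from -0.28 for UTR2, a chitin transglycosylase, to -0.13 for MSB2, the signalling mucin of the filamentous growth pathway. GAS1 had -0.27 and CIS3, a PIR cell wall protein, -0.13. That sign is not stable, since 1 of the 4 was above 0 after quantile normalization and all 4 were on the hybridisation controls. The GPI transamidase, which attaches the anchor the yapsins carry, had 0 of 5 subunits called and 0 at an unadjusted p under 0.05. Its values ran from -0.38 for GPI8, the catalytic subunit, to 0.296 for GPI17.

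Of 25 other genes for GPI-anchored surface proteins, 1 rose, 2 fell and 22 were not called, beside 2.2% of all genes tested higher and 0.531% lower. In limma 12 of the 25 had an unadjusted p under 0.05, beside 20.2% of all probe sets. The median log2 fold change was 0.04 (0.18 after quantile normalization and 0.39 on the hybridisation controls). TIP1, a cell wall mannoprotein, read 2997.0 and 2790.8 in hst3hst4 and 1892.5 and 1542.0 in wild-type. Its log2 fold change was 0.76 (limma adjusted p = 0.0391). EGT2 (-1.20, limma adjusted p = 0.012) and DSE2 (-0.90, 0.02) fell, and both act in the separation of daughter from mother cells. All 3 calls were lost without either hst3hst4 array, at 0.71 and 0.81 for TIP1, -1.18 and -1.23 for EGT2, and -0.85 and -0.95 for DSE2. Genes with the same anchor as the yapsins thus had values on both sides of 0, with 13 above and 12 below, which became 20 and 5 on the hybridisation controls and 12 and 13 with median centring. The calls of TIP1 and DSE2 were also lost with no filter and without the trend, and that of EGT2 without the trend. That of TIP1 was lost with median centring and that of DSE2 on the hybridisation controls (-0.54). On those controls 9 of the 25 were called, beside 1168 called and 6044 above 0 of all 7420 probe sets.

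The cell integrity pathway is the kinase cascade through which wall damage induces many wall genes. Of its 12 measured genes 0 were called in limma, beside 2.64% of all probe sets, and 1 had an unadjusted p under 0.05, beside 20.2%. Values ran from -0.43 for SWI6, a cofactor of cell cycle transcription, to 0.46 for the MAP kinase kinase MKK2. The kinase SLT2 had 0.15 (limma adjusted p = 0.647) and RLM1, the transcription factor it activates, -0.08 (0.815). Among 16 wall genes linked to Rlm1, PIR3, a wall glycoprotein, and GSC2, an inducible glucan synthase subunit, rose by log2 fold changes of 3.60 and 1.92 (limma adjusted p = 0.00046 and 0.00321). The other 14 were not called, beside 2.2% of all genes tested called higher and 0.531% lower. FKS1, the main glucan synthase, was lowest at -0.30, and the median of the 16 was 0.28. In limma 7 of the 16 had an unadjusted p under 0.05, beside 20.2% of all probe sets. On the hybridisation controls 9 of the 16 were called, all 16 were above 0 and the median was 0.64. Of all 7420 probe sets, 1168 were called there, 6044 were above 0 and the median was 0.32. The PIR3 call held in all 14 alternatives, from 3.402 to 3.95. The GSC2 call was lost without hst3hst4 replicate 1 (1.87) or replicate 2 (1.96).

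Of 10 genes of the general stress response, 4 rose on the arrays labelled hst3hst4 and 6 were not called. Their summed signal, most of which in hst3hst4 is that of HSP12 and DDR2, was 8453.3 and 9533.9 in hst3hst4 against 3535.9 and 2089.2 in wild-type. The 4 that rose were HSP26, HSP12, SSA3 and DDR2, beside 2.2% of all genes tested called higher. In limma 7 of the 10 had an unadjusted p under 0.05, beside 20.2% of all probe sets. The median log2 fold change of the 10 was 1.21. The lowest was HSP104, the disaggregase, at -0.14, and the trehalose synthase subunit TPS1 (0.03) and the glycogen synthase GSY2 (-0.02) lay near 0. The other genes not called were CTT1 (1.25), SSA4 (1.18) and SOD2 (0.66). On the hybridisation controls 7 of the 10 were called and all 10 were above 0, beside 1168 called and 6044 above 0 of all 7420 probe sets. Between the wild-type cultures the median of the list was -0.72 (replicate 2 minus replicate 1). The yapsins differed there by -0.16 for YPS3, -0.18 for YPS6, -0.52 for YPS1, 0.56 for YPS7 and 0.59 for MKC7. HSP12 rose by 2.65 (limma adjusted p = 0.000775) and HSP26 by 3.37 (0.00146), both small heat shock proteins. SSA3, an Hsp70, rose by 2.63 (0.0248) and DDR2 by 2.46 (0.0171). The calls of SSA3 and DDR2 were lost without either hst3hst4 array, at 3.0 and 2.26 for SSA3 and 2.57 and 2.35 for DDR2, and with no filter or no trend. Those of HSP12 (2.62) and HSP26 (3.24) were lost without hst3hst4 replicate 2. The part of growth state in the yapsin values was not tested.

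Since BAR1 is expressed in MATa cells and the labels give no mating type, mating genes were read too. The summed signal of 6 MATa genes was 3673.8 and 3896.8 in hst3hst4 against 4602.4 and 4416.7 in wild-type. All 6 had values below 0, of which 3 turned above 0 on the hybridisation controls. In limma 3 of the 6 had an unadjusted p under 0.05, beside 20.2% of all probe sets. STE6, the a-factor exporter, fell by 1.05 on the log2 scale (limma adjusted p = 0.0284). That call was lost without hst3hst4 replicate 1 (-0.91) or replicate 2 (-1.196), with no filter, without the trend, and on the hybridisation controls (-0.70). The highest of the 6 was MFA1, a gene for a-factor, at -0.11. For 4 MATalpha genes the sums were 156.7 and 178.4 against 85.8 and 134.3, 0 were called in limma and 2 had an unadjusted p under 0.05. They ran from -0.13 for the pheromone gene MF(ALPHA)2 to 0.96 for the agglutinin SAG1. On the hybridisation controls 3 of the 4 were called and all 4 were above 0. Of all 7420 probe sets, 1168 were called and 6044 were above 0 there, the background of each count on these controls in this paragraph. For 5 genes of haploid cells the sums were 350.6 and 424.0 against 622.2 and 619.5, 0 were called and 4 had an unadjusted p under 0.05, beside 20.2% of all probe sets. They ran from -1.15 for HO, the mating type switching endonuclease, to -0.305 for FUS3, the pheromone MAP kinase; on the hybridisation controls 1 of the 5 turned above 0 and 1 was called. Over the 4 arrays the MATa genes read from 82.3 (STE6) to 2303.7 (MFA2) and the MATalpha genes from 7.2 (STE3) to 79.4 (SAG1). The array medians were 37.5 to 41.2. Without detection calls, which of these genes were expressed was not tested, nor was their part in the yapsin values.

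The yapsin genes lie in different chromosome settings. YPS1 and YPS3 are adjacent, 523 bp apart. The other measured neighbours of the pair were SRN2, a subunit of the ESCRT-I sorting complex, with a log2 fold change of 0.31 (limma adjusted p = 0.5), and TML25 with 0.22 (0.589). YLR125W lay below the filter, at signals of 1.8 and 5.3 against 1.0 and 0.7, and YLR122C had no probe set of its own listed. YPS3 was thus the 1 called gene of this stretch.

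YPS6 lies near the right end of chromosome IX. Its neighbours GTT1, HYR1 and PAU15 had values above 0 under each scaling tried, beside 2547 of all 5271 genes tested that were above 0. GTT1, a glutathione transferase 5984 bp away, rose from 292.7 and 251.0 in wild-type to 655.7 and 658.4 in hst3hst4. On the log2 scale this was 1.27 (SE 0.15, limma adjusted p = 0.00963), a call that fell away without hst3hst4 replicate 1 (1.27) or replicate 2 (1.26), and without the trend. Beyond it HYR1, a phospholipid hydroperoxide glutathione peroxidase, had 0.40 (0.194). Toward the chromosome end, PAU15, of the seripauperin family, had 0.91 (limma adjusted p = 0.133) with signals of 36.7 and 28.6 against 13.2 and 18.5. The uncharacterised YIR042C had 1.54 (0.0793) with 17.0 and 22.4 against 3.6 and 5.6. Both wild-type signals of YIR042C lie below the filter of about 8.97, so it was tested only through its hst3hst4 signals and its sign supports no pattern. For GTT1, HYR1 and PAU15 both hst3hst4 arrays lay above both wild-type arrays, as for 25.1% of all genes tested. Of these neighbours only GTT1 was called, beside 2.2% of all genes tested called higher. On the hybridisation controls GTT1, HYR1 and PAU15 were all called, but there 1140 of 7420 probe sets were called higher. Nothing is read from these counts. Seripauperin genes are nearly alike in sequence, so the PAU15 value is uncertain.

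The neighbours of YPS7 and MKC7 on chromosome IV had log2 fold changes from -0.13 to 0.54. Around YPS7 they were MRP1 (0.02), a mitochondrial ribosomal protein, PAL1 (0.10), a protein of endocytic sites, ATP22 (0.19), a translation factor for an ATP synthase subunit, and SBE2 (0.54), which acts in bud growth. Around MKC7 they were PEX7 (-0.12), a peroxisomal import receptor, SAN1 (0.04), a ubiquitin ligase, TAF12 (-0.03), a subunit of TFIID and SAGA, and SWI5 (-0.13), a transcription factor of the M/G1 boundary. Of these 8, 0 were called in limma (lowest adjusted p = 0.251) and 0 had an unadjusted p under 0.05, beside 20.2% of all probe sets.

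**Figure D3:**
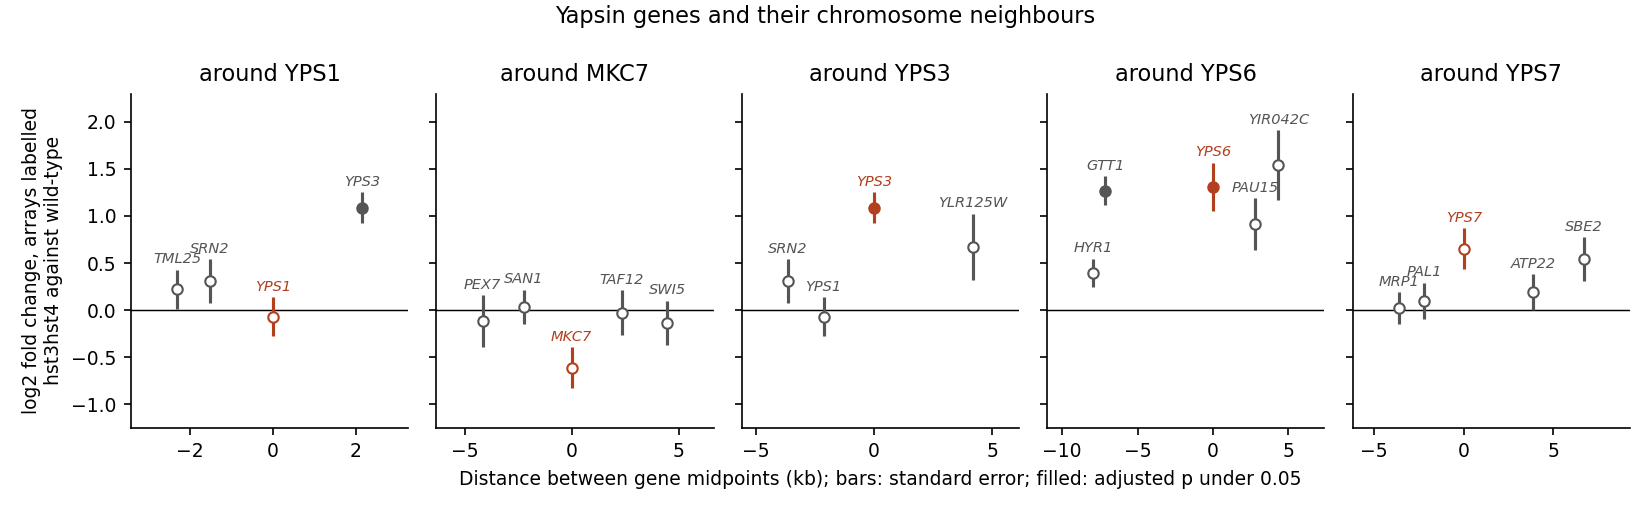
Log2 fold changes (vertical axis, arrays labelled hst3hst4 against wild-type, bars standard errors) of each yapsin gene (red) and its measured neighbours (grey) by the distance between gene midpoints in kb. Filled points were called. Around YPS6, GTT1, HYR1 and PAU15 lie above 0, as does YIR042C, which passed the filter only through its hst3hst4 signals. Around MKC7 the neighbours lie between -0.13 and 0.04.

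The genes whose profile over the 4 arrays was closest to each yapsin were found by distance between log2 values centred on the wild-type mean, among 5270 other genes. The number of genes within a distance of 0.5 differed widely, from 30 for YPS6 and 114 for YPS3 to 294 for YPS7, 414 for MKC7 and 1389 for YPS1, so a close profile is common for the last. Closest to YPS3 were NAF1, an assembly factor of small nucleolar RNPs (distance 0.056), ODC1, a mitochondrial dicarboxylate carrier (0.0999), and ATP5, a subunit of ATP synthase (0.117). Closest to YPS6 were YDR514C (0.11), PUG1, a porphyrin transporter (0.158), and GDH3, a glutamate dehydrogenase (0.287). For YPS7 they were PEX4, a peroxisomal ubiquitin-conjugating enzyme, NDE1, a mitochondrial NADH dehydrogenase, and SPH1, a protein of polarised growth (0.038 to 0.11). For MKC7 they were PRP38, a splicing factor, YLR419W and YML018C (0.0974 to 0.153), and for YPS1 BSD2, MDM30 and MDY2 (0.0635 to 0.0781). No yapsin was among the closest 3 of another.

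**Figure D4:**
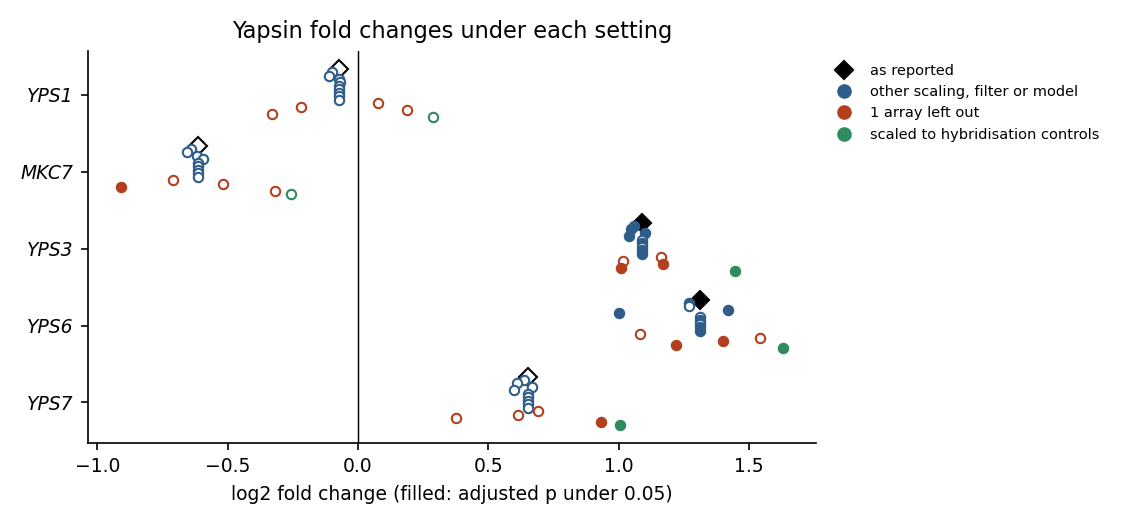
Log2 fold changes of the 5 yapsin genes (horizontal axis) as reported (diamonds) and under 14 alternative settings (circles, spread vertically for display); filled symbols have an adjusted p under 0.05. YPS3 (1.01 to 1.45) and YPS6 (0.9995 to 1.63) stay above 0 in each, MKC7 stays below 0, and YPS1 lies on both sides. For YPS3, YPS6 and MKC7 only another scaling could turn the sign, since their strains do not overlap.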

How the data were processed

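Hot acid phenol extracts of total RNA went through 1 oligo-dT primed amplification and biotin labelling, per the labels' protocols. The deposited table holds a linear intensity signal per probe set. The submitters' processing notes list GCOS 1.4 and MAS5, with no role or order. The scale target is not given in the sources used here. After trimming 2% at each end the mean signal was 150.2 on all 4 arrays, beside medians of 37.5 to 41.2. Changes are thus relative to a mean of linear signals, in which bright probe sets weigh most. The table has no detection calls, and MAS5 values are noisy when low. The cultures of a strain were independent, per the series' design.

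Of 9335 probe sets, 60 controls were left out. Of the 9275 others, 6504 had 1 gene in the platform annotation, 328 several and 2443 none; symbols and positions are those of the RefSeq table of R64, in which all 6504 matched. Where a gene had several probe sets, the one with the highest mean represented it. Signals were transformed as log2(signal + 3.3), 3.3 being the 10th percentile, which understates changes of dim genes. The lowest 20% of probe sets by mean (1855) were left out. Strains were compared with limma 3.58.1 (R 4.3.3), with a mean-variance trend, two-sided, with Benjamini-Hochberg adjustment over 7420 probe sets and a threshold of 0.05; 196 passed, 156 higher and 40 lower (1140 and 28 when scaled to the hybridisation controls). The fit was tested on simulated data. Alternatives were quantile normalization, median centring, a pseudocount of 1 or 12.9, no filter or one of 40%, no trend, 1 probe set per gene, a block for the replicate number, leaving out each array, and scaling to 9 hybridisation controls. Figures were drawn with matplotlib 3.10.9.

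The members, the lists and the rule for named genes were chosen with earlier results of these data known. The rule took all yapsins, HST3 and HST4, the called, highest and lowest genes of each list, the other proteases, mating genes, 2 neighbours on each side, and the 3 closest profiles. Of the lists, WSC1 had no probe set of its own listed. SLT2, RLM1, GAS1, CIS3, TPS1, GSY2, CTT1, SSA4, SOD2 and the middle values of other lists were named after their values were seen. Sequences were not used here. Deviations of same-numbered replicates correlated with r = -0.041 over probe sets that are not independent. Each strain gives a single such difference, so this cannot show whether the replicates were paired.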

Additional observations from a re-analysis of the deposited data

Results flagged for a closer look

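A probe set assigned to both YPS6 and YPS5, outside the comparison because it has several genes, was higher on both arrays labelled hst3hst4 (33.9 and 29.4) than on both wild-type arrays (12.6 and 7.4). Its log2 fold change was 1.42 (SE 0.31, array pairs from 1.04 to 1.798), beside 1.31 for the probe set of YPS6 alone and 0.32 for that of YPS5 alone. It was not called (limma adjusted p = 0.0608). Which of the genes gives the signal was not tested.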

How the results depend on the processing

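The direction of YPS3, YPS6, YPS7 and MKC7 held in all 14 alternatives. Their strains did not overlap, so only quantile normalization, median centring or the hybridisation controls could turn the direction. In the other alternatives it was fixed in advance, and nothing is read from those. Scaling to the hybridisation controls was chosen after seeing the data and moved the median of all probe sets to 0.32. YPS1 turned to 0.08 without hst3hst4 replicate 1, 0.19 without wild-type replicate 1 and 0.29 on those controls, all uncalled, with a range of -0.33 to 0.19 over the arrays left out. The 2 yapsin calls became 1 with median centring, 0 with no filter (4 at an unadjusted p under 0.05 in limma) and 0 without the trend (3), and 0 to 3 with 1 array left out, being 0 without either hst3hst4 array (2 at an unadjusted p under 0.05). The 196 called probe sets became 36 with no filter, 38 without the trend and 1168 on the hybridisation controls (1140 higher, 28 lower), and 4 to 865 with 1 array left out. The 13 called genes of the lists became 7, 5, 32 and 1 to 25 in the same settings. Of the called genes of the lists, PIR3 kept its call in all 14 alternatives and HSP12 and HSP26 in 13; GSC2 kept it in 12, EGT2 and GTT1 in 11, DDR2 and SSA3 in 10, and PEP4, TIP1, DSE2 and STE6 in 9, beside 10 for YPS3 and 9 for YPS6. With the replicate number as a block, 343 probe sets and the same 2 yapsins, YPS3 and YPS6, were called. The cause of these moves was not tested. With 1 array left out, the lone array is assumed to vary like the other strain. YPS6 and YPS5 signals are low, where precision is poorest.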
